A study of Mus musculus with 11 samples.

Results

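Tumor cDC1s that carry the CD11c-CRE transgene and have lost XBP1 were compared with Cre-negative tumor cDC1s, whatever the state of IRE1. The samples were chosen by genotype, and 7 of the 11 RNA-seq libraries of the series were Cre-positive and 4 were Cre-negative. cDC1s are conventional type 1 dendritic cells, which take up dying tumor cells and present their antigens to CD8+ T cells. They were sorted from subcutaneous tumors of B16, a mouse melanoma line, and each library was a pool of cells from 2 to 4 mice. The 4 XBP1ΔDC pools came from XBP1 fl/fl, CD11c-CRE mice and the 3 XBP1ΔDCIRE1truncDC pools, called double-deficient here, from CD11c-CRE mice with XBP1 fl/fl and IRE1 fl/fl. Control pools 1 to 3 came from XBP1 fl/fl mice and control pool 4 from XBP1 fl/fl, IRE1 fl/fl mice, all without Cre, so every pool carried the floxed Xbp1 alleles. Mice of both sexes were on a C57BL/6 background and 6 to 14 weeks old. Cre removes exon 2 of Xbp1, and in the double-deficient line also exons 20 and 21 of Ern1, which leaves a truncated IRE1 without its RNase domain. The Itgax-Cre line is active in all CD11c-expressing cells, not in cDC1s alone. No Cre-positive pool kept an intact Xbp1, so an effect of the transgene and an effect of XBP1 loss cannot be told apart in this comparison.

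IRE1 is a sensor of the endoplasmic reticulum (ER) membrane. Its RNase splices Xbp1 mRNA into the form that encodes the transcription factor XBP1s, which drives genes for protein entry into the ER, folding, glycosylation, disposal and export to the Golgi. The same RNase can cut other mRNAs at the ER, a process called RIDD. PERK, another ER sensor, raises translation of the transcription factor ATF4, which drives genes of amino acid synthesis and transport, and ATF6 is the third. cDC1s are known for strong IRE1 activity even without an outside stress.

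Promoters were read for the letters that XBP1s and ATF6 are known to bind. RefSeq promoters on GRCm38.p6, from 250 bases before to 50 bases after the start of a gene, were searched on both strands. The letters searched were the ER stress element (ERSE: CCAAT, 9 bases of any kind and CCACG), a shorter form of it (ERSE-II: ATTGG, 1 base of any kind and CCACG) and the core of the unfolded protein response element (UPRE core: TGACGTGG). All of them contain CCACG or its reverse complement, so they overlap in letters. A promoter was found for 26 of the 29 genes that were lower in all Cre-positive pools, as described below. Of these, 0 of 26 held an ERSE, 1 of 26 an ERSE-II (Nucb1) and 2 of 26 a UPRE core (Txndc11 and Txndc5). The share with any of the 3 was 11.5%, against 0.884% of the 27025 genes with a promoter in the table and 1.26% of the genes tested here. The 4 stretches below are shown because Nucb1, Txndc11 and Txndc5 fell in Cre-positive pools, whereas Hspa5, which holds the ERSE in full, was higher. Each is given 5′ to 3′ on the strand of its gene, with the matched letters in capitals.
Nucb1, chr7:45510429-45510458, minus strand: cagagtcagCGTGGACCAATcagtattctg
Txndc11, chr16:11134616-11134645, minus strand: tgaagtgtggcTGACGTGGagagtccgggt
Txndc5, chr13:38528034-38528063, minus strand: ggcctcgccgcTGACGTGGcgctagccgcc
Hspa5, chr2:34772020-34772049, plus strand: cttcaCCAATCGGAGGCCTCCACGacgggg
In Nucb1 the element is in reverse orientation and its first base lies 41 bases before the RefSeq start. In Txndc11, Txndc5 and Hspa5 the first base lies 102, 138 and 65 bases before it. The GENCODE spans, from which gene positions here are taken, begin elsewhere. By these spans the stretches of Txndc11, Txndc5 and Hspa5 lie inside the gene, and only that of Nucb1 lies before it. A match describes letters only, and a promoter without one in this window may be bound elsewhere.

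Read counts per gene were scaled by TMM and are given as CPM, counts relative to a common library size. Totals were 21089065 to 26843486 counts per pool, and the 50 most abundant genes took 23.03% to 25.35% of them. No pools were copies of each other within counting error. The cDC1 markers were present in all pools, with a summed level over 16 genes of 19243 to 21129 CPM in control. The sum was 17602 to 18522 CPM in XBP1ΔDC and 18333 to 18689 CPM in double-deficient pools. Every Cre-positive pool thus lay below every control pool, in a sum that follows abundant members such as Naaa, described below. Summed levels of the T and NK cell list were at most 15.95 CPM, of the B and plasma cell list at most 2.76 CPM and of the neutrophil list at most 1.87 CPM, and the 4 hemoglobin genes were at 0 in every pool. The macrophage and monocyte list summed to 970 to 1729 CPM. The fibroblast and endothelium list summed to 12.996 to 24.5 CPM in control, 24.1 to 40.9 CPM in XBP1ΔDC and 16.5 to 25.2 CPM in double-deficient pools. Melanoma transcripts summed to 12.2 to 76.4 CPM in control, 16.004 to 86.2 CPM in XBP1ΔDC and 11.996 to 15.7 CPM in double-deficient pools. Of the 10951 genes tested, 5497 had a lower and 5454 a higher estimate in Cre-positive pools, with a median log2 fold change of -0.00113. Fold changes of the Cre-positive pools are the mean of both lines against control, so that each line has equal weight, and come with their standard error and the adjusted p of edgeR's quasi-likelihood test over all genes.

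In Cre-positive cDC1s, 44 of 175 tested genes of the secretory pathway were lower at an edgeR adjusted p below 0.05. This held for 0.849% of all genes tested. At the same limit, 5 of 19 tested targets of PERK and ATF4 were higher, beside 0.128% of all genes. There were 42 DEGs, called at a fold above 1.5 with an adjusted p below 0.05, of which 35 (0.32% of all genes tested) were lower and 7 (0.0639%) were higher. Without the fold limit, 93 genes (0.849%) were lower and 14 (0.128%) were higher. Of the 35 lower DEGs, 29 were lower in all 7 Cre-positive pools than in all 4 control pools, which held for 194 genes (1.77%) of all genes tested. The other 6 lower DEGs overlapped the controls. All 7 higher DEGs were above every control pool, which held for 64 genes (0.584%) of all genes tested. Among the 29 shared lower DEGs, log2 fold changes ranged from -2.33 to -0.48 in XBP1ΔDC (median -0.70) and from -2.92 to -0.46 in double-deficient cells (median -0.68). The difference between the lines was tested directly. None of the 29 (0 of 29) differed after adjustment, while 8 genes (0.0731%) of all genes tested did so with the fold limit. Of the 29, 4 had an unadjusted p under 0.05, which held for 5.29% of all genes tested. The 29 were picked because the pools of both lines lay below the controls. That choice favors agreement between the lines, so these counts are a description only. The 95% interval of the line difference lay within a 1.5-fold change for 23 of the 29. For the other 6 the data do not show that the lines acted alike. In bulk samples, fewer cells of a type and less RNA per cell cannot be told apart.

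**Figure D1:**
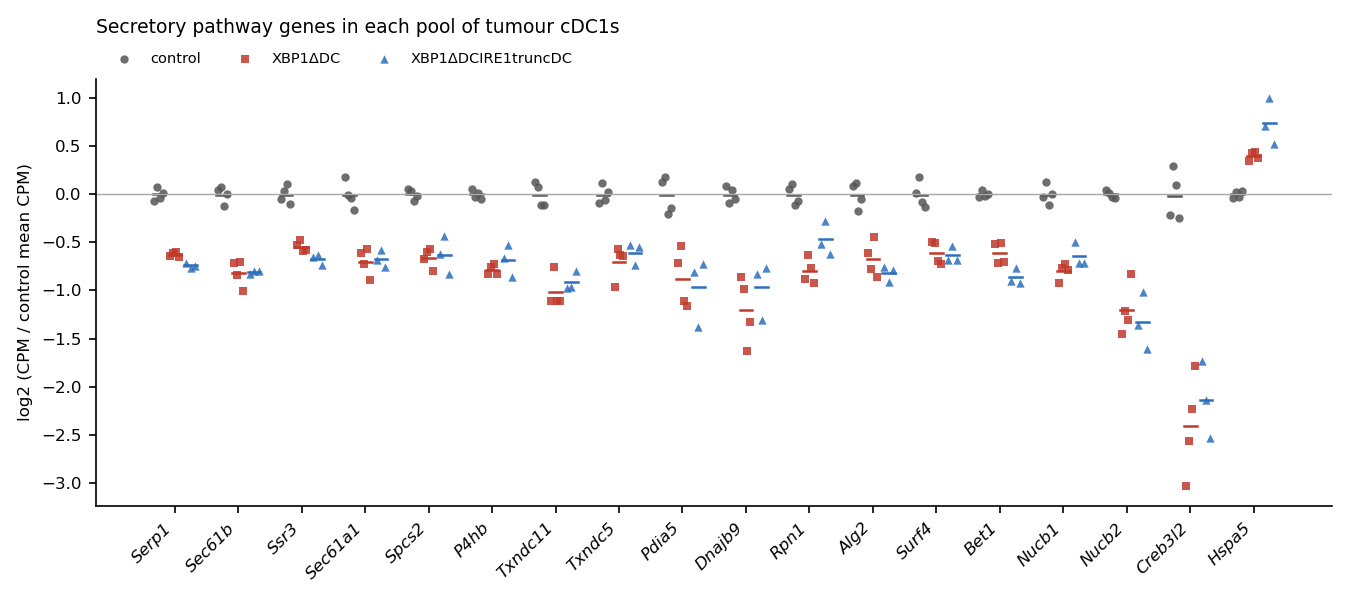
Level of 18 genes in each pool, as log2 of CPM over the mean CPM of the 4 control pools. Gray circles are control, red squares XBP1ΔDC and blue triangles XBP1ΔDCIRE1truncDC pools, and short lines are group means. For the first 17 genes all 7 Cre-positive pools lie below all 4 control pools, and for Hspa5 all 7 lie above.

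Protein entry into the ER is the role of the ER translocation list, and all 25 tested members had lower estimates. Of these, 12 passed the test and 13 were lower in all 7 Cre-positive pools. Over all genes tested, 50.2% had lower estimates, 0.849% passed the test as lower and 1.77% were lower in all 7 pools. The same shares stand beside each list of secretory genes below. The median log2 fold change of the list was -0.35. Serp1, which encodes a protein that stabilizes membrane proteins at the translocon (chromosome 3 of GRCm38, 58519817 to 58525892), was at 798.5, 882, 814 and 844 CPM in control. It was at 536, 546, 551 and 531 CPM in XBP1ΔDC pools and at 509.5, 493 and 499 CPM in double-deficient pools. The groups did not overlap, and pools of each line lay close to each other. Its log2 fold change was -0.68 (standard error 0.0484, edgeR adjusted p = 4.48e-05).

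Sec61b, a subunit of the translocon channel, was at 88.8 to 101.7 CPM in control and 48.2 to 59.4 CPM in Cre-positive pools (log2 fold change -0.81, edgeR adjusted p = 2.63e-04). Its line difference was 0.00418 on the log2 scale, with a 95% interval of -0.19 to 0.20. Alg2, a mannosyltransferase of N-glycan assembly, starts 325 bases from Sec61b on the opposite strand of chromosome 4. It was at 22.3 to 27.2 CPM in control and 13.4 to 18.5 CPM in Cre-positive pools, a log2 fold change of -0.74 (edgeR adjusted p = 0.00424). Sec61a1, which forms the channel itself, fell by 0.68 on the log2 scale, and Ssr3, a translocon-associated subunit, by 0.61. Spcs2 encodes a subunit of the signal peptidase, which trims proteins as they enter, and fell by 0.64. Ssr1 and Spcs3 fell by 0.52 and 0.58 and were short of the fold limit.

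Oxidative folding, the formation of disulfide bonds in the ER, had called genes in the same direction. Of the 20 disulfide isomerases and oxidases tested, 16 had lower estimates, 5 passed the test, all lower, and 7 were lower in all 7 pools. P4hb, the abundant protein disulfide isomerase, was at 942, 886, 915 and 879 CPM in control. It was at 509, 535, 547 and 511 CPM in XBP1ΔDC pools and at 570, 626 and 499 CPM in double-deficient pools. The highest Cre-positive pool was thus below the lowest control pool, and the log2 fold change was -0.73 (standard error 0.0626, edgeR adjusted p = 2.02e-04). Txndc11, a thioredoxin-domain protein of the ER (chromosome 16, 11074911 to 11134650), was at 52.1 to 61.6 CPM in control and 26.1 to 33.4 CPM in Cre-positive pools. Its log2 fold change of -0.96 was close to that of Pdia5, another isomerase, at -0.90, while Txndc5 had -0.65. Erp44, which retains unfinished proteins in the early secretory pathway, had -0.58 and an adjusted p of 7.36e-04 from edgeR. Its log2 fold change was -0.76 in XBP1ΔDC and -0.40 in double-deficient cells. The line difference was 0.35, with an interval of 0.18 to 0.53 and an adjusted p of 0.20 from edgeR. The paper lists Erp44 among RIDD targets that were lower in XBP1ΔDC but not in double-deficient cells.

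Of the 34 N-glycosylation genes tested, 26 had lower estimates, 9 passed the test, all lower, and 16 were lower in all 7 pools, with a list median of -0.27. Rpn1, Ddost, Ostc and Stt3a encode parts of the oligosaccharyltransferase, the enzyme that attaches glycans to proteins. They fell by 0.63, 0.55, 0.54 and 0.53 on the log2 scale. Only Rpn1 passed the fold limit, and its decrease was larger in XBP1ΔDC (log2 fold change -0.80) than in double-deficient cells (-0.46), a difference with an interval of 0.12 to 0.55 and an adjusted p of 0.54 from edgeR. Mgat2, a Golgi enzyme of complex N-glycans, fell by 0.52, and Rpl36al, a ribosomal protein gene 74 bases away, fell by 0.49 (edgeR adjusted p = 0.0147).

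ER chaperones were called in both directions. Of 20 tested, 15 had lower and 5 higher estimates, 3 passed the test as lower and 1 as higher, and the list median was -0.14. Dnajb9, a cochaperone that binds IRE1 and BiP, was at 27.4 to 30.8 CPM in control and 9.42 to 17.0 CPM in Cre-positive pools (log2 fold change -1.06, edgeR adjusted p = 0.003). Hyou1, an ER partner of BiP, fell by 0.58 and Ppib, a prolyl isomerase, by 0.33. Hspa5, which encodes BiP, the main ER chaperone (chromosome 2, 34771970 to 34777547), was at 1631, 1704, 1647 and 1718 CPM in control. It was at 2134, 2253, 2272 and 2173 CPM in XBP1ΔDC pools and at 2740, 3351 and 2406 CPM in double-deficient pools. All 7 Cre-positive pools lay above the controls, and double-deficient pools above XBP1ΔDC pools. The log2 fold change was 0.58 (standard error 0.0758, edgeR adjusted p = 0.00177), just under the fold limit.

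Vesicle transport between ER and Golgi carries folded proteins onward. Of 46 genes tested, 44 had lower estimates, 11 passed the test, all lower, and 18 were lower in all 7 pools, with a median of -0.22. Surf4, a cargo receptor between ER and Golgi, fell by 0.62 and Bet1, a SNARE of vesicle fusion, by 0.73. The cargo adaptors Tmed2 and Tmed9 fell by 0.54 and 0.47. For ERAD, the disposal of misfolded ER proteins, and UFMylation, the tagging of ER proteins with UFM1, 20 of 30 tested genes had lower estimates and 4 passed the test, all lower. These were Cdk5rap3 and Ufl1, which act in UFMylation (log2 fold changes -0.62 and -0.59), and Edem2 and Vimp, which act in ERAD (-0.42 in each). Ufl1 kept its DEG call in 13 of 27 other settings. Taking these 6 lists of secretory genes as a set of 175 tested genes, 44 (25.1%) passed the test as lower, beside 0.849% of all genes. A single member, Hspa5, passed as higher.

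**Figure D2:**
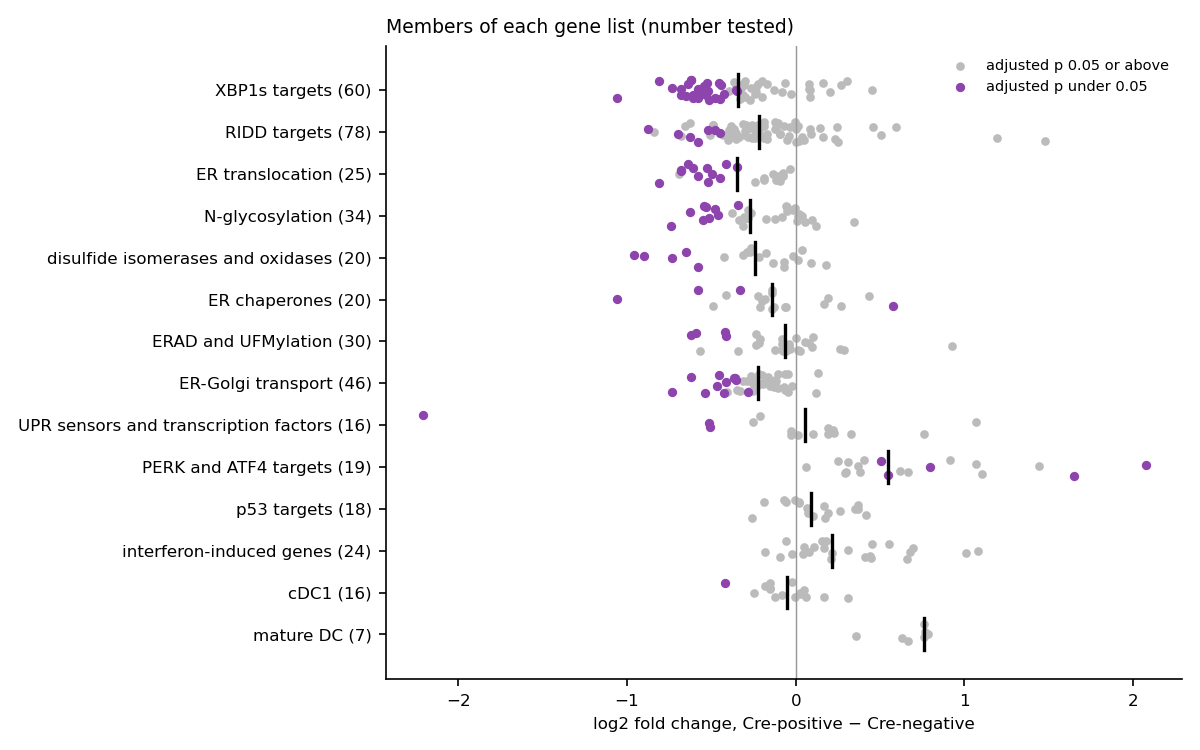
Log2 fold change of Cre-positive against Cre-negative pools for each tested member of 14 gene lists, with the number tested in brackets. Each point is a gene, purple where the adjusted p from edgeR was under 0.05, black lines are list medians and the vertical gray line is the median of all genes. The ER translocation and ER-Golgi transport lists lie left of 0 and all 19 PERK and ATF4 targets lie right of it.

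The list of XBP1s targets that the study took from earlier work holds 60 genes, all tested. Of these, 51 had lower and 9 higher estimates, 26 passed the test, all lower, and 30 were lower in all 7 pools. Over all genes tested, 0.849% passed as lower and 1.77% were lower in all 7 pools. The medians were -0.34 for the Cre-positive pools, -0.36 in XBP1ΔDC and -0.31 in double-deficient cells. Of the 29 shared lower DEGs, 11 were in this list, 16 in a secretory list and 12 in none of these lists. The RIDD list had 78 tested genes, of which 60 had lower estimates and 7 passed the test, all lower, beside 0.849% of all genes. Its median was -0.29 in XBP1ΔDC and -0.093 in double-deficient cells, so the mean over both lines hides a gap between them.

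Several shared lower genes act outside the core machinery. Creb3l2, which encodes an ER-bound transcription factor of secretory genes (chromosome 6, 37327255 to 37442146), was at 8.65, 12.3, 10.7 and 8.48 CPM in control. It was at 1.22, 1.69, 2.14 and 2.91 CPM in XBP1ΔDC pools and at 3.01, 2.28 and 1.74 CPM in double-deficient pools. Its log2 fold change of -2.21 (standard error 0.249, edgeR adjusted p = 7.63e-04) was the largest decrease among the DEGs. The calcium-binding proteins Nucb1 and Nucb2 of the early secretory pathway fell by 0.72 and 1.25. Nucb2 was at 43.2 to 45.6 CPM in control and 14.5 to 24.9 CPM in Cre-positive pools. Slc39a7, a zinc transporter of the ER, fell by 0.59, with 132.8 to 139.7 CPM in control and 81.8 to 94.1 CPM in Cre-positive pools. Cpne8, a calcium-dependent membrane-binding protein, was low throughout, at 1.16 to 2.44 CPM in control, 0.727 to 1.05 CPM in XBP1ΔDC and 0.156 to 0.326 CPM in double-deficient pools. It passed the filter mainly through the control pools, and its log2 fold change of -2.09 (edgeR adjusted p = 0.014) was lost as a call when control pool 1 or 2 was left out and when the lines were fitted as 1 group (edgeR adjusted p = 0.14).

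Further shared lower DEGs were Snd1, Elovl6, Entpd7, Chpf, Treml4, Tspan2 and Ppapdc1b, which were looked up after their values were seen. Their log2 fold changes ranged from -1.20 (Ppapdc1b) to -0.59 (Tspan2). Elovl6 lengthens fatty acids and fell by 0.61. Tspan2 was the least stable call of all DEGs and kept it in 10 of 27 other settings, while Treml4 kept it in 16 and Ppapdc1b in 15. Serp1, P4hb, Sec61b, Nucb1, Txndc11, Nucb2, Creb3l2, Sec61a1, Bet1, Dnajb9, Pdia5 and Otud1 were DEGs in all 27.

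Among UPR sensors and transcription factors, 16 were tested, and 7 had lower and 9 higher estimates. Of the 16, 3 passed the test, all lower, beside 0.849% of all genes tested. Besides Creb3l2 these were Xbp1 itself and Eif2ak3, which encodes PERK. Xbp1 transcripts counted over the whole gene were at 244 to 271 CPM in control, 130.1 to 165 CPM in XBP1ΔDC and 179 to 236 CPM in double-deficient pools. The deletion removes exon 2 only, so the count of the whole gene does not measure its efficiency. The log2 fold change was -0.51 (standard error 0.0849, edgeR adjusted p = 0.00973), and the adjusted p rose to 0.0975 when the lines were fitted as 1 group. Eif2ak3 fell by 0.51 (edgeR adjusted p = 0.0482). Its log2 fold change was -0.71 in XBP1ΔDC and -0.30 in double-deficient cells (edgeR adjusted p of the difference 0.66). Ern1, the IRE1 gene, was at 9.82 to 19.0 CPM in control and 9.74 to 26.0 CPM in Cre-positive pools (log2 fold change 0.22, edgeR adjusted p = 0.76). The estimate was -0.17 in XBP1ΔDC and 0.62 in double-deficient cells, where all 3 pools lay above the 4 XBP1ΔDC pools, and the line difference was 0.79 (95% interval 0.30 to 1.28, edgeR adjusted p = 0.49). Atf6 had a fold change of -0.21 on the log2 scale (edgeR adjusted p = 0.41).

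In contrast, all 19 tested targets of PERK and ATF4 had higher estimates, with a median of 0.55. Of these, 5 passed the test, beside 0.128% of all genes as higher, 3 were DEGs, beside 0.0639%, and 8 were higher in all 7 Cre-positive pools, beside 0.584%. Asns, which makes asparagine (chromosome 6, 7675169 to 7693254), was at 7.25, 8.66, 10.4 and 3.57 CPM in control. It was at 25.1, 20.7, 20.3 and 16.9 CPM in XBP1ΔDC pools and at 18.7, 41.3 and 19.7 CPM in double-deficient pools. Every Cre-positive pool lay above the controls, double-deficient pool 2 was highest and control pool 4 lowest. The log2 fold change was 1.65 (standard error 0.294, edgeR adjusted p = 0.0154).

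Trib3, a pseudokinase induced by ATF4 (chromosome 2, 152337422 to 152344032), was at 3.56, 2.00, 3.48 and 1.79 CPM in control. It was at 8.88, 9.60, 7.31 and 6.99 CPM in XBP1ΔDC pools and at 8.01, 32.2 and 7.61 CPM in double-deficient pools. Its log2 fold change was 2.07 (edgeR adjusted p = 0.0303), and 1.56 without double-deficient pool 2 (edgeR adjusted p = 0.0109). Slc6a9, a glycine transporter outside the list (chromosome 4, 117834506 to 117875198), was at 0.759 to 4.56 CPM in control and 7.27 to 24.2 CPM in Cre-positive pools. Its log2 fold change was 2.24 (edgeR adjusted p = 0.0297), with an adjusted p of 0.0544 without control pool 4. Gpt2, which makes alanine, was at 8.12 to 13.9 CPM in control and 16.7 to 26.7 CPM in Cre-positive pools (log2 fold change 0.80, edgeR adjusted p = 0.0446).

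Mthfd2 and Shmt2, mitochondrial enzymes of one-carbon metabolism, rose by 0.51 and 0.55 (edgeR adjusted p = 0.0273 and 0.0362), short of the fold limit. Eif4ebp1, a brake on translation outside the list, rose by 0.48 (edgeR adjusted p = 0.0281). Ddit3, which encodes CHOP, was at 8.07 to 9.24 CPM in control and 12.05 to 21.1 CPM in Cre-positive pools, with an adjusted p of 0.0507 from edgeR for its log2 fold change of 0.76. Phgdh, the first enzyme of serine synthesis, had a log2 fold change of 0.91 and an adjusted p of 0.0599 from edgeR. Atf4 mRNA itself had 0.32 (edgeR adjusted p = 0.17). Double-deficient pool 2 held the highest value of all pools in 14 of the 19 genes. The estimate was higher in double-deficient than in XBP1ΔDC cells for 17 of the 19. For the line difference, 2 of the 19 had an unadjusted p under 0.05, beside 5.29% of all genes tested. Without control pool 4 and double-deficient pool 2, an alternative chosen after the data were seen, 3 DEGs were higher. Asns and Trib3 then had log2 fold changes of 1.19 and 1.42 (edgeR adjusted p = 0.0105 and 0.0344), and Slc6a9 and Gpt2 1.70 and 0.57 (edgeR adjusted p = 0.0658 and 0.15). The 7 higher DEGs numbered 2 without control pool 1, 3 without control pool 2 and 4 without XBP1ΔDC pool 4. With any 1 pool left out, the edgeR adjusted p reached at most 0.0656 for Asns, 0.14 for Trib3, 0.116 for Slc6a9, 0.12 for Gpt2 and 0.0984 for Dock1. Gpt2 was called in 12, Trib3 in 14, Slc6a9 in 15 and Asns in 24 of 27 other settings.

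**Figure D3:**
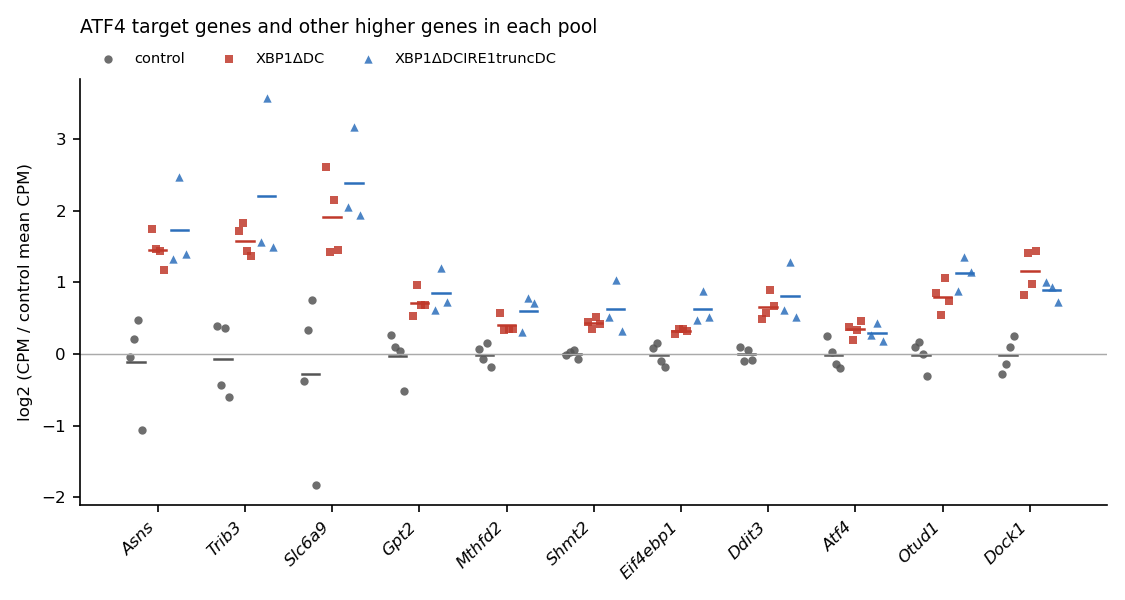
Level of 11 genes in each pool, as log2 of CPM over the mean CPM of the 4 control pools, with symbols and lines as in the plot of secretory pathway genes. Double-deficient pool 2 is the high blue triangle for Asns, Trib3 and Slc6a9, and control pool 4 is the low gray circle for Asns and Slc6a9. Atf4 is the only one of the 11 whose Cre-positive pools overlap the controls.

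Otud1 and Dock1 were higher DEGs outside these lists. Otud1, a deubiquitinase (chromosome 2, 19657752 to 19660583), was at 12.1, 12.6, 11.3 and 9.11 CPM in control. It was at 20.3, 16.4, 23.6 and 18.8 CPM in XBP1ΔDC pools and at 20.8, 28.9 and 25.03 CPM in double-deficient pools. The groups did not overlap, and its log2 fold change was 0.98 (standard error 0.143, edgeR adjusted p = 0.00437). Dock1, an activator of the small GTPase Rac (chromosome 7, 134670654 to 135173639), was at 3.01 to 4.37 CPM in control and 6.08 to 9.94 CPM in Cre-positive pools. Its log2 fold change was 1.04 (edgeR adjusted p = 0.0237).

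Maturation markers did not pass the test. All 7 tested genes of the mature DC list had higher estimates, 6 had an unadjusted p under 0.05, which held for 4.87% of all genes tested in that direction, and 0 of 7 had an adjusted p under 0.05. The list median was 0.76, and summed levels were 1958 to 4042 CPM in control and 2548 to 7380 CPM in Cre-positive pools, so the groups overlapped. The highest sums were 7380 CPM in double-deficient pool 3 and 5500 CPM in XBP1ΔDC pool 1, while double-deficient pool 2 was at 3698 CPM. Cd200, Cacnb3, Fscn1 and Socs2 had log2 fold changes of 0.67 to 0.78, with adjusted p of 0.24 to 0.36 from edgeR. With the summed level of this list as a covariate, an alternative chosen after the data were seen, 31 DEGs were called, 24 lower and 7 higher, of which 23 were among the 42. Asns, Trib3, Slc6a9, Gpt2 and Dock1 then had adjusted p of 0.0571, 0.0762, 0.0914, 0.15 and 0.11 from edgeR, with log2 fold changes of 1.67, 2.16, 2.24, 0.83 and 1.10. The N-glycosylation median moved from -0.27 to -0.13. The part of maturation in the results was not tested further.

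Of the 16 cDC1 markers, 1 passed the test, beside 0.849% of all genes tested as lower. Naaa, a lysosomal amidase used as a cDC1 marker (chromosome 5, 92257659 to 92278170), was at 3926 to 4356 CPM in control and 2705 to 3415 CPM in Cre-positive pools (log2 fold change -0.42, edgeR adjusted p = 7.74e-04). Over the 16 markers, 10 had lower and 6 higher estimates, with a median of -0.052. Their summed level was lower in all 7 Cre-positive pools than in all 4 control pools, but such a sum follows its abundant members. Naaa had a mean of 4141 CPM in control and 3073 CPM in Cre-positive pools, and Ppt1, another marker of the list, 3120 and 2810 CPM. Of the 16 markers, 1 was by itself lower in all 7 pools, beside 1.77% of all genes tested. Xcr1 and Clec9a, defining receptors of cDC1s, had 0.024 and 0.0499 (edgeR adjusted p = 0.95 and 0.90), and Itgae, the CD103 integrin chain, had -0.25 (edgeR adjusted p = 0.15). No member passed the test in the lists of p53 targets (18 tested), interferon-induced genes (24 tested, 20 with higher estimates, median 0.21), cDC2 (6), macrophage and monocyte (12), pDC (4), melanoma (5), B and plasma cell (2), fibroblast and endothelium (5) or sex-linked genes (5). Of these lists, 1 p53 target, 3 interferon-induced genes, 2 pDC markers and 1 melanoma marker had an unadjusted p under 0.05, beside 5.78% of all genes as lower and 4.87% as higher. Cdkn1a, a p53 target, had a log2 fold change of 0.42 (edgeR adjusted p = 0.28) and Gbp2, an interferon-induced GTPase, 1.01 (edgeR adjusted p = 0.32). Of the 4 pDC markers, 3 had lower estimates and 1 a higher one, with a median of -0.51. Ccr9 and Siglech had -0.88 and -1.48 (edgeR adjusted p = 0.25 and 0.39), and the summed level of the pDC list overlapped, at 49.4 to 71.1 CPM in control and 33.6 to 69.1 CPM in Cre-positive pools.

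In 6 lower DEGs of the combined comparison, double-deficient pools overlapped the controls, and the line difference passed the test in 5 of the 6. Itgb2, the integrin chain shared by CD11 molecules, was at 809 to 855 CPM in control, 226 to 301 CPM in XBP1ΔDC and 828 to 997 CPM in double-deficient pools. The XBP1ΔDC pools alone stood apart, and the line difference was 1.78 on the log2 scale (95% interval 1.55 to 2.01, edgeR adjusted p = 4.97e-06). Fcrla, an Fc receptor-like protein, differed by 2.40 between the lines, Fam134c, an ER-phagy receptor, by 1.07, Notch4, a Notch receptor, by 1.03 and Rnf130, an E3 ubiquitin ligase, by 0.85, each with an adjusted p under 0.05 from edgeR. Such calls were made for 8 genes (0.0731%) of all genes tested. Itgb2 and Fcrla kept the call in every setting in which the line difference was fitted. Rnf130 and Notch4 lost it without XBP1ΔDC pool 1 (edgeR adjusted p = 0.117 and 0.0615) or 3 (0.125 and 0.0767) and without double-deficient pool 1 (0.244 and 0.105) or 3 (0.157 and 0.0811). Rnf130 also lost it without control pool 1, 2 or 4 or XBP1ΔDC pool 4. Abca2, a lipid transporter, was at 30.9 to 48.0 CPM in control, 11.1 to 20.4 CPM in XBP1ΔDC and 23.1 to 32.5 CPM in double-deficient pools. Its line difference of 0.89 did not pass (edgeR adjusted p = 0.26). When all 7 Cre-positive pools were fitted as 1 group, Itgb2, Fcrla, Notch4, Rnf130, Fam134c and Abca2 were no longer called.

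**Figure D4:**
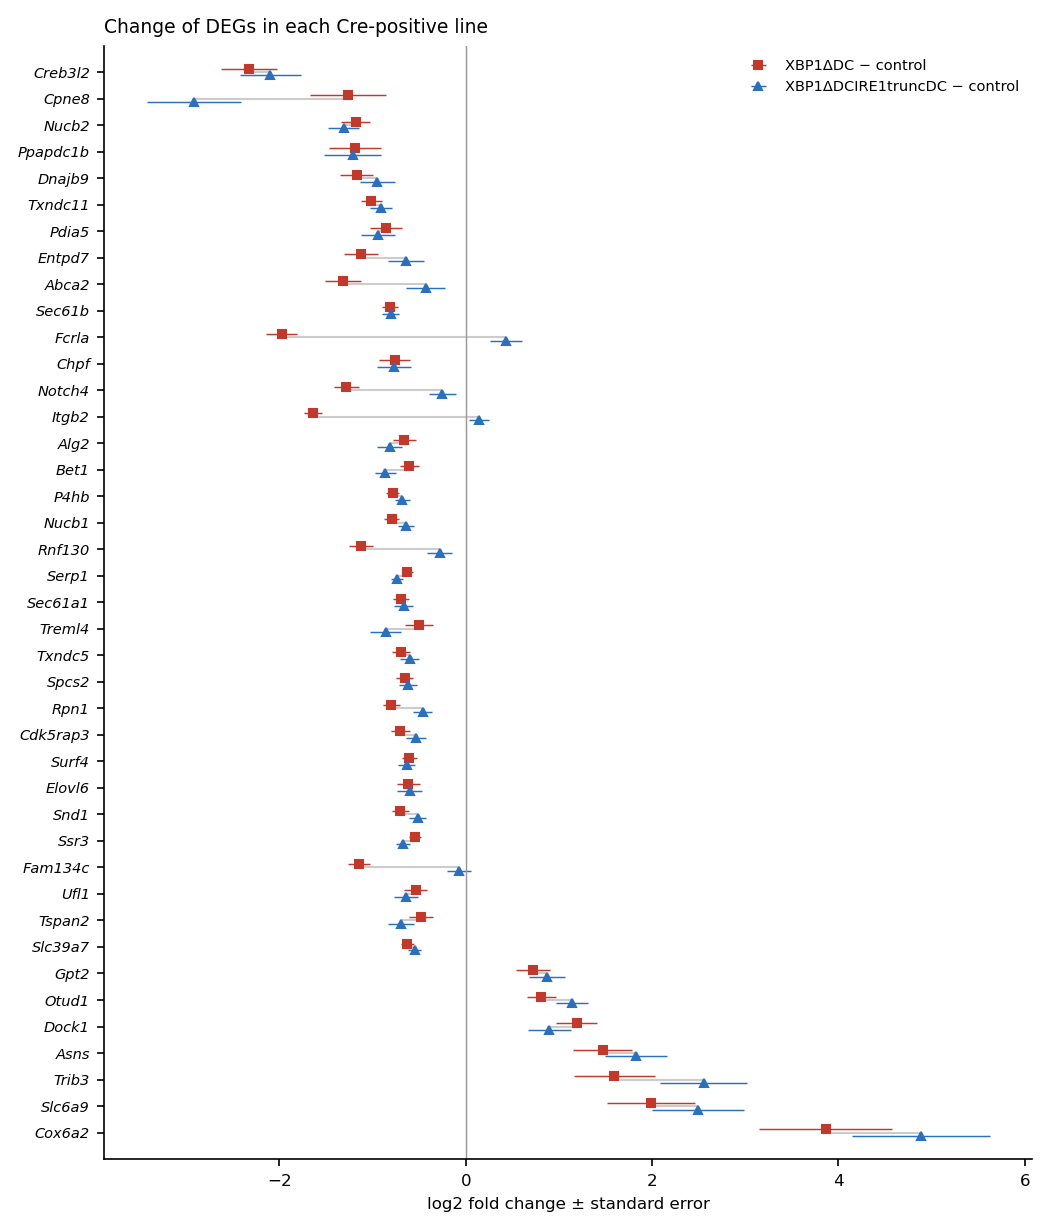
Log2 fold change of 41 of the 42 DEGs in XBP1ΔDC (red squares) and double-deficient pools (blue triangles), each against the same 4 control pools, with standard errors as bars and a gray line joining both values of a gene. For most genes the symbols lie close together, while Fcrla, Itgb2, Fam134c, Notch4, Rnf130 and Abca2 are lower in XBP1ΔDC than in double-deficient pools.

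Genes that may follow the Cre transgene were examined around Itgax, since the CD11c-CRE construct is built on Itgax sequence. Itgax encodes CD11c (chromosome 7 of GRCm38, 128129547 to 128150657). It was at 173 to 202 CPM in control and 143 to 204 CPM in Cre-positive pools, and its log2 fold change of -0.15 (standard error 0.0944, edgeR adjusted p = 0.63) was within the spread between pools. The table has no entry for the Cre sequence itself, so the transgene was not measured. Within 500 kb of Itgax, 64 genes are annotated, of which 36 are in the table and 24 were tested. Their estimates were lower for 12 and higher for 12, with a median of 0.0069, and 1 passed the test, beside 0.977% of all genes tested in either direction. Nothing is read from that count, since the gene entered the test only through its level in Cre-positive pools. Of the others, 2 had an unadjusted p under 0.05, beside 10.6% of all genes tested in either direction.

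The gene that passed was Cox6a2, a muscle-type subunit of cytochrome c oxidase, 54778 bases downstream of Itgax on the minus strand (128205435 to 128206387). It was at 0.170, 0.0370, 0.0829 and 0.0446 CPM in control. It was at 2.17, 1.33, 0.842 and 0.776 CPM in XBP1ΔDC pools and at 1.02, 4.84 and 1.96 CPM in double-deficient pools. Every Cre-positive pool was above every control pool, at a low level in all. The log2 fold change was 4.37 (standard error 0.688, edgeR adjusted p = 0.00698), the largest of all DEGs. It was above 1 CPM in 0 of 4 control pools, so it had to differ to be tested at all, and DESeq2 gave it no adjusted p.

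Itgad, an integrin gene related to Itgax that begins 3719 bases downstream of it, was below the filter. It had 2, 0, 0 and 9 reads in control, 25, 15, 73 and 10 reads in XBP1ΔDC and 10, 17 and 17 reads in double-deficient pools. Its levels were 0 to 0.402 CPM in control and 0.388 to 2.79 CPM in Cre-positive pools, so control pool 4 lay above the 2 lowest Cre-positive pools. With no filter its adjusted p was 0.38 from edgeR. The annotated span of Itgad, 128154376 to 128223816 on the plus strand, contains Cox6a2, and the amplification kit does not mark strand, so reads of both genes cannot be told apart where they overlap. Tgfb1i1, 96155 bases downstream, had 0 to 0.166 CPM in control and 0 to 1.09 CPM in Cre-positive pools, with 3 Cre-positive pools at 0. Dock1 also lies on chromosome 7, at 6464267 bases from Cox6a2 and outside the window. Whether the Cox6a2 change follows the transgene or the loss of XBP1 cannot be told apart in this design.

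**Figure D5:**
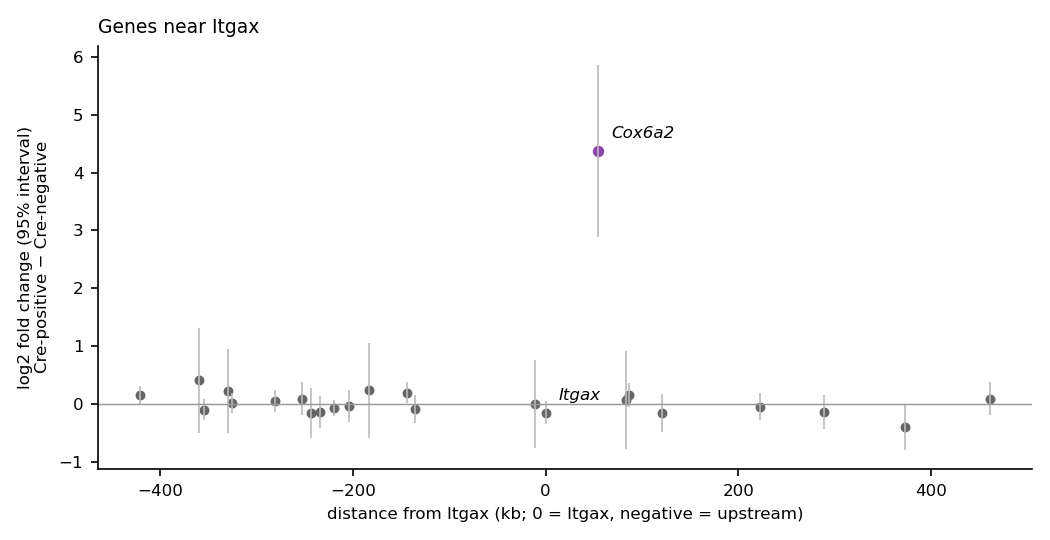
Log2 fold change of Cre-positive against Cre-negative pools for the 24 tested genes within 500 kb of Itgax, against distance from Itgax in kb, with 95% intervals as bars. The purple point, Cox6a2, is the only 1 of the 24 with an adjusted p under 0.05 from edgeR.

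Ahrr, the repressor of the aryl hydrocarbon receptor (chromosome 13 of GRCm38, 74211118 to 74292331), was below the filter and was looked up after its values were seen. It had 32, 18, 50 and 40 reads in control, 4, 2, 1 and 0 reads in XBP1ΔDC and 0, 0 and 0 reads in double-deficient pools. The groups did not overlap, with a sum of 140 reads over 4 control pools and 7 reads over 7 Cre-positive pools. In the fit with no filter, Ahrr had an edgeR adjusted p of 0.0108 over 15647 genes. Of the 9 genes of the AhR pathway list, 3 were tested and none had an unadjusted p under 0.05. Within 500 kb of Ahrr, 11 of 38 other annotated genes were tested, with log2 fold changes of -0.25 to 0.22, and none of the 11 passed the test or had an unadjusted p under 0.05.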

How the data were processed

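RNA was amplified with SMART-seq from 11 pools of sorted cDC1s. The authors trimmed single-end reads (Trimmomatic 0.39, FastQC 0.11.8), aligned them to mm10 with STAR 2.7.3a and counted reads per gene. The deposited counts were used, without normalization by the authors; a deposited table of normalized log2 values (limma 3.42.2) was not used. The annotation behind the counts is not given in the sources used here. Positions are from GENCODE vM21 and promoters from RefSeq (8905 of 10951 tested genes matched), both GRCm38.

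A gene needed more than 1 CPM in 4 or more pools, which left 10951 of 24421 genes for edgeR 4.0.16 in R 4.3.3 (TMM, quasi-likelihood, Benjamini-Hochberg). All 3 genotypes were fitted together, and the contrast was the mean of both Cre-positive lines minus control. The main fit did not pair pools by replicate number. Deviations of 10 same-numbered pairs correlated at -0.323 to 0.15. Differently numbered pairs were not examined, so these values cannot settle whether the numbers pair pools. The standard error is the log2 fold change over the square root of F. Pools are independent groups of mice, so p-values measure spread between pools.

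Members, gene lists and tests were chosen with earlier results of these data known. Genes named were up to 10 lower and 10 higher DEGs, taken by p, DEGs beyond a log2 fold change of 2, genes near Itgax, up to 4 members per list and the 5 largest line differences by p. Others were picked with their values in view (Sec61a1, Spcs2, Spcs3, Alg2, Mgat2, Rpl36al, Pdia5, Eif4ebp1, Phgdh, Atf4, Atf6, Abca2, Itgad, Tgfb1i1 and Ahrr among them). Alternatives used DESeq2 1.42.0 and limma 3.58.1, and figures python 3.11.15 with matplotlib 3.10.9. At 21089065 to 26843486 counts per pool, 1 CPM is about 21 to 27 reads. Some single-gene results are not reported here.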

Additional observations from a re-analysis of the deposited data

Results flagged for a closer look

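Single pools stood apart from the other 3 of their group, by Dixon's test, for 6 of 164 gene and group pairs examined (82 genes in the control and XBP1ΔDC groups, 3.66%), while chance gives about 1 in 20. In XBP1ΔDC, Txndc11 was at 33.4 CPM in pool 2, Mgat2 at 144.0 CPM in pool 2, Fam134c at 14.1 CPM in pool 3, Cpne8 at 1.05 CPM in pool 4 and Mthfd2 at 233.0 CPM in pool 1. In control, Erp44 was at 196.0 CPM in pool 4. Double-deficient pools number 3 and were not examined in this way.

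The decrease differed between the lines, by edgeR's test of the difference itself, for 5 of the 42 DEGs. Double-deficient minus XBP1ΔDC was 2.40 on the log2 scale for Fcrla, 1.78 for Itgb2, 1.07 for Fam134c, 1.03 for Notch4 and 0.847 for Rnf130. Each line was set against the same 4 control pools.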

How the results depend on the processing

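The 42 DEGs (35 lower, 7 higher) numbered 34 with the lines fitted as 1 group, 45 with pools weighted equally, 42 with voom (38 lower, 4 higher), 39 with RLE factors, 42 with no filter and 40 with 1 CPM required in all 11 pools. DESeq2 called 73 (44 lower, 29 higher, 37 of them among the 42), and 107 passed with no fold limit. A Y-linked covariate gave 62 (39 lower, 23 higher), a melanoma covariate 40. Leaving out 1 pool gave 28 (without control pool 2) to 47, with 31 without control pool 1, and the mature DC covariate 31. Without control pool 4 and double-deficient pool 2, 40 were called (37 lower, 3 higher). Of the 5 line differences among the DEGs, leaving out 1 pool gave 3 to 5 (3 without XBP1ΔDC pool 1 or 3 or double-deficient pool 1 or 3) and the melanoma covariate 3.

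Whether replicate numbers pair the pools was not settled. Of 10 same-numbered pairs, 3 correlated above 0.1, all of them control with XBP1ΔDC (0.15, 0.142 and 0.138). With the replicate block, 32 DEGs were called (26 lower, 6 higher), 28 of them among the 42, and 2 line differences (Itgb2 and Fcrla, while Fam134c, Notch4 and Rnf130 lost the call).

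Leaving out 1 pool moved the ER translocation median between -0.3953 and -0.3482 and that of N-glycosylation between -0.2793 and -0.2037. With the mature DC covariate, added after the data were seen, medians were -0.2686 for RIDD targets, -0.287 for ER translocation, -0.1331 for N-glycosylation, -0.0943 for ERAD and UFMylation and -0.1926 for ER-Golgi transport. That of the mature DC list, from which the covariate was built, was -0.0007307, the value of its member Socs2, and turned from 0.76. Without control pool 4 and double-deficient pool 2 the XBP1s target median was -0.3897. The cause of these shifts was not tested. Genes near 1 CPM, such as Cox6a2 and Cpne8, rest on few reads per pool.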

Other observations

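Further gene groups were looked up after the values of all genes had been seen, so they are descriptions with no test of the group. In sterol synthesis, 17 of 18 genes listed had lower estimates in Cre-positive pools, with a median log2 fold change of -0.35, beside -0.00113 for all genes tested. The median was -0.32 in XBP1ΔDC and -0.34 in double-deficient cells, each against the same control pools. Of the 18, 1 passed the test as lower, beside 0.849% of all genes tested. This was Nsdhl, a sterol dehydrogenase (54.5 ± 3.68 CPM over 4 control and 40.1 ± 2.43 CPM over 7 Cre-positive pools, mean ± SD, with an edgeR adjusted p of 0.0137). Among lysosomal hydrolases and their activators, 25 of 26 had lower estimates (median -0.143), beside 50.2% of all genes tested. Of the 26, 4 passed the test as lower, beside 0.849%. Psap, the precursor of the saposins, fell by 0.32 on the log2 scale, and Grn, progranulin, by 0.36. Gm2a, the GM2 activator, fell by 0.52, and the remaining one was Naaa. For Gm2a the log2 fold change was -0.71 in XBP1ΔDC and -0.32 in double-deficient cells. This line difference had an interval of 0.21 to 0.57 and an adjusted p of 0.20 from edgeR. The paper lists Gm2a among RIDD targets that were lower in XBP1ΔDC but not in double-deficient cells.

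Of 20 aminoacyl-tRNA synthetases, which load amino acids onto tRNAs, 18 had higher estimates (median 0.314), 11 had an unadjusted p under 0.05, beside 4.87% of all genes as higher, and 5 were higher in all 7 Cre-positive pools, beside 0.584%, but none passed the edgeR test after adjustment. Mean Aars levels were 159.0 ± 26.3 CPM (SD) over 4 control pools and 232.0 ± 46.6 CPM (SD) over 7 Cre-positive pools, with double-deficient pool 2 highest. Of 20 antigen presentation genes, 12 had lower and 8 higher estimates. The 8 higher ones act in MHC class I presentation. The lower ones act in MHC class II presentation, except Tapbp, which acts in class I. As lower, 10 had an unadjusted p under 0.05, beside 5.78% of all genes, and 6 were lower in all 7 pools, beside 1.77%. As higher, 1 had an unadjusted p under 0.05, beside 4.87%. Of the 20, 2 passed the test as lower, beside 0.849%. These were H2-Oa and March1, which act on MHC class II loading and turnover and fell by 0.48 and 0.29 on the log2 scale.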
